A study of Mus musculus with 26 samples.

Results

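The genes followed here are protamine and transition protein genes, and genes of factors that act on them, their products or spermatid chromatin. They are 10 genes of 21275 in the testis table of the series, and they were chosen by name: 5 late targets (Prm1, Prm2, Prm3, Tnp1 and Tnp2) and 5 regulators (Brdt, Crem, Ybx2, Camk4 and Chd5). Each of the 10 passed the filter on low values, which left 20658 genes to be tested. The series is an RNA-seq study of Tex10 in mouse germ cells, and its testis experiment compared wildtype mice with mice carrying a conditional knockout (cKO) of Tex10. There were 2 libraries of wildtype testis and 2 of cKO testis, all of the C57BL/6N strain and untreated. Cultured cells of the 129Sv/J strain are used for levels and, for Chd5 and Crem only, to set dTAG13 against DMSO. They were epiblast-like cells, and primordial germ cell-like cells at day 2 and day 4 with DMSO or 500 nM dTAG13, which degrades tagged Tex10. A further set held an empty-vector line and 2 Tex10 overexpression clones as epiblast-like cells and at day 2, day 4 and day 6. The Cre driver, the alleles and the age of the animals are not given in the sources used here. The labels name whole testis cells with no sorting, so each library mixes germ cells of every stage with somatic cells. In such bulk samples, fewer spermatids and less RNA per spermatid cannot be told apart.

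As background, a round spermatid replaces most of its histones in steps, first by transition proteins and then by protamines, until the sperm head is packed tightly. The late genes are transcribed in round spermatids, stored as silent messenger RNA by proteins such as YBX2, and translated only when the nucleus elongates. CREM, in its activator form, drives many of these genes through cAMP response elements in short promoters. BRDT binds the acetylated histones that are to be removed, CHD5 remodels the nucleosomes and CAMK4 phosphorylates protamine 2.

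The promoters of the 5 late targets and of Chd5 are shown so that the letters before their starts can be set beside the elements of CREM and the Y-box proteins. Of the 10 genes, 8 matched the RefSeq promoter table (build GRCm38.p6), with 10 windows between them. Each line gives the 100 bases before the annotated start, 5′ to 3′ on the gene's own strand. Capitals mark either a match to the cAMP response element TGACGTCA with at most 1 mismatch, or the letters TATAA read on either strand. The minus strand windows are chr16:10796824-10796923 for Prm1, chr16:10792106-10792205 for Prm2, chr16:10790915-10791014 for Prm3, chr1:73015900-73015999 for Tnp1 and chr16:10788656-10788755 for Tnp2. The plus strand window of Chd5 is chr4:152338551-152338650.
Prm1: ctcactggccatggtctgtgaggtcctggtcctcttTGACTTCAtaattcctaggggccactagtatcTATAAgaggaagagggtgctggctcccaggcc
Prm2: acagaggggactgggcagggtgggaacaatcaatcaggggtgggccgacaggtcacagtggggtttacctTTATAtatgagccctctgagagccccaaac
Prm3: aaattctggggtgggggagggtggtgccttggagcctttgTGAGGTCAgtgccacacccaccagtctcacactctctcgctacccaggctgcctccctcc
Tnp1: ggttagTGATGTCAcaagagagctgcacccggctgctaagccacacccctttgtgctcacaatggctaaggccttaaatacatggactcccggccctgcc
Tnp2: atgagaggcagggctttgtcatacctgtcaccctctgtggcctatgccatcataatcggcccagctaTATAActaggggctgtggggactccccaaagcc
Chd5: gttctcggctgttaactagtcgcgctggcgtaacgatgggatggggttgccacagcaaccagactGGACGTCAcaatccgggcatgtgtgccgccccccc

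Within 250 bases before the start, no window of the 8 matched genes held the exact element TGACGTCA, which 1.55% of all 32851 promoter windows in the table held. The search that allowed 1 mismatch was added after this was seen. It matched Prm1 (64 bases before the start), Prm3 (60 bases), Tnp1 (94 bases) and Chd5 (35 bases), and it matched 10.6% of all windows. The shorter TGACG element was found in Chd5 only, inside its longer match, and in 17.8% of all windows. TATAA on either strand was found in Prm1, Prm2 and Tnp2, at 30 to 33 bases before the start, and in 22.8% of all windows. The inverted CCAAT box ATTGG, a Y-box protein element, was found in Prm3, Brdt and Ybx2 and in 33.9% of all windows. These are matches of letters and not measured binding.

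Testis libraries held between 6058987 and 7272313 reads over the genes of the table, so that 3 reads corresponded to values between 0.381 and 0.514, for counting error only. Values are TMM-scaled CPM, that is CPM of a library size adjusted by the trimmed mean of M values. A log2 fold change is the difference of mean log2(value + 1), cKO less wildtype. Each limma adjusted p was corrected over all 20658 tested genes (Benjamini-Hochberg), and a gene was called under 0.05. Nothing in the labels says that the libraries of a group came from separate animals, so the p-values measure only the spread between these libraries. That spread is moderated: limma draws the value of each gene toward a trend over all tested genes. Close replicates of 1 gene therefore do not by themselves give a small p. Tex10, the targeted gene, was read first: wildtype libraries had 79.1 and 44.1, cKO libraries 29.8 and 27.3. The groups did not overlap, and the cKO mean was 46.4% of the wildtype mean (log2 fold change -1.02, SE 0.214, limma adjusted p 0.00318). A fit without 1 library leaves a single library in that group. That library is assumed to vary like the other group, whose pair alone gives the spread, taken over all tested genes. The p-values of such fits are therefore given only to show lost calls. Without wildtype replicate 1 the Tex10 log2 fold change was -0.61, and without the variance trend its limma adjusted p was 0.0782. The median over all tested genes was 0.01. The table called 2700 genes lower in cKO testis (13.1% of those tested) and 3316 higher (16.1%), and without cKO replicate 1 these counts were 1537 and 1662.

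Among the 10 genes, 5 were called lower in cKO testis and 0 higher by limma, against the 13.1% of tested genes called lower. The called genes were Prm1, Prm3, Tnp1 and Tnp2 among the late targets and Chd5 among the regulators. At an unadjusted p under 0.05, Prm2, Brdt and Camk4 were lower too, 8 of the 10 in all against 18.6% of tested genes. The edgeR test on recovered reads called 6 of the 10 (12.8% of all genes tested), DESeq2 called 4 (10.8%, without Prm1 and Tnp1) and the authors' deposited table has 5 at an FDR under 0.05 (13.9%). Without the variance trend in limma Chd5 alone was called, among 475 genes called lower in all. After quantile normalization Chd5 and Camk4 were called, among 2419 genes called lower in all. Both cKO libraries lay below both wildtype libraries for 10 of the 10 genes on the deposited scale, as they did for 31.5% of tested genes. After quantile normalization, however, the log2 fold changes of Prm2 and Ybx2 turned positive (0.03 and 0.26). That scaling gives each gene a value set by its rank in the library. A gene that keeps a rank near the top can therefore hardly show a decrease.

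**Figure D1:**
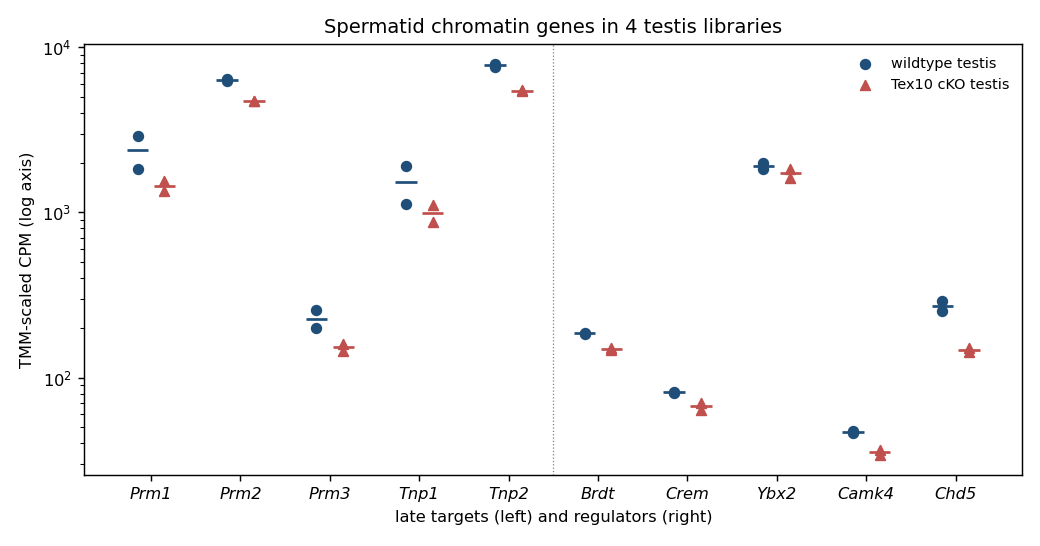
TMM-scaled CPM of the 10 genes on a log axis in 2 wildtype (blue circles) and 2 Tex10 cKO (red triangles) testis libraries, with a bar at each group mean. On the deposited scale every red pair lies below its blue pair, but after quantile normalization Prm2 and Ybx2 were not lower; the blue circles of Prm1 (1833 and 2921) and Tnp1 (1127 and 1910) stand far apart.

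The protamine genes carried 61.0% to 74.8% of their wildtype level in cKO testis. Prm1, the protamine of all mammalian sperm, was at 1833 and 2921 in wildtype and at 1347 and 1553 in cKO libraries. Its wildtype libraries differed more than the 2 groups' nearest libraries did, although the groups did not overlap. Prm1 fell by 0.68 on the log2 scale (SE 0.184, limma adjusted p 0.0138), from 2377 ± 770 to 1450 ± 146 (SD, n = 2 each). The size moved with wildtype replicate 2 and with the scaling: the difference was -0.34 without that library and -0.34 after quantile normalization (limma adjusted p 0.209), and without cKO replicate 1 it was -0.57 (limma adjusted p 0.147).

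Prm2, whose protein is made as a precursor and trimmed on the DNA, had closer replicates than Prm1. Its values were 6221 and 6383 in wildtype and 4697 and 4729 in cKO libraries. These groups lay well apart, with cKO at 74.8% of wildtype. Its difference of -0.42 on the log2 scale (SE 0.151) had a limma adjusted p of 0.0510, which missed the threshold, while edgeR gave 0.0282 and DESeq2 0.000654. It also passed with a pseudocount of 0.1, a mean of at least 5 and the replicate block. Prm2 missed with median-ratio size factors (limma adjusted p 0.0716), no filter on low values, no variance trend and quantile normalization. Its log2 fold change without each library in turn stayed between -0.44 and -0.40. Prm2 was among the 5 highest genes in each library, where values set by rank leave little room for a decrease. Quantile normalization gave Prm2 a log2 fold change of 0.03.

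Prm3 lies between Prm2 and Tnp2 and encodes an acidic protein of the spermatid cytoplasm, not a DNA-packing protamine. It was at 256 and 199 in wildtype and at 160 and 144 in cKO libraries, with no overlap. Prm3 fell by 0.56 on the log2 scale (SE 0.135, limma adjusted p 0.00708), to 67.1% of wildtype. Without each library in turn its log2 fold change ran from -0.75 to -0.38, and after quantile normalization it was -0.28 (limma adjusted p 0.150).

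The transition protein genes, whose products stand on the DNA between histones and protamines, fell to a similar degree. Tnp2 was at 7583 and 7971 in wildtype and at 5452 and 5485 in cKO libraries, 70.3% of wildtype, with groups far apart. Tnp2 fell by 0.51 (SE 0.156, limma adjusted p 0.0256). The call was lost without cKO replicate 1 or cKO replicate 2, at hardly moved log2 fold changes of -0.50 and -0.51. In those fits the spread comes from the 2 wildtype libraries, through a trend over all tested genes, and not from Tnp2 alone. Tnp1 had 1127 and 1910 in wildtype and 880 and 1109 in cKO libraries. The highest cKO library was thus just below the lowest wildtype library. Tnp1 fell by 0.57 (SE 0.198, limma adjusted p 0.0439), to 65.5% of wildtype. Its size moved with wildtype replicate 2 and with the scaling. The difference was -0.06 after quantile normalization (limma adjusted p 0.839) and -0.19 without wildtype replicate 2. It was -0.95 without wildtype replicate 1 and -0.40 without cKO replicate 1. The call was lost without wildtype replicate 2 and without cKO replicate 1.

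Prm1 and Tnp1 shared the high value in wildtype replicate 2, and Prm2 and Tnp2 did not. Prm1 stood at 0.295 and 0.458 of Prm2 in wildtype libraries and at 0.287 and 0.329 in cKO libraries. Tnp1 stood at 0.149 and 0.240 of Tnp2 in wildtype and at 0.161 and 0.202 in cKO libraries. Both ratios overlapped between groups. Prm1 over Tnp1 was 1.63 and 1.53 in wildtype and 1.53 and 1.40 in cKO libraries. Prm2 over Tnp2 was 0.821 and 0.801 in wildtype and 0.862 in both cKO libraries, with no overlap: Tnp2 was the lower of the pair relative to wildtype.

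Among the regulators, Chd5, the chromatin remodeller, stood apart from the others. It was at 254 and 289 in wildtype and at 142 and 152 in cKO libraries. No cKO library came near a wildtype one. Chd5 fell by 0.88 on the log2 scale (SE 0.119, limma adjusted p 0.000222), to 54.1% of wildtype, the lowest percentage among the 10 genes. It was called under each of the alternatives run, with log2 fold changes from -0.97 to -0.59 and limma, edgeR or DESeq2 adjusted p no higher than 0.0427.

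The other regulators were not called in the main test. Brdt, the testis bromodomain reader of acetylated histones, was at 185 and 186 in wildtype and at 152 and 148 in cKO libraries. Replicates nearly coincided, and the log2 fold change was -0.31 (SE 0.114, limma adjusted p 0.0570). Camk4, the calcium/calmodulin-dependent kinase, was at 47.6 and 45.8 in wildtype and at 33.8 and 36.5 in cKO libraries. Its groups did not overlap, with a log2 fold change of -0.40 (SE 0.146, limma adjusted p 0.0535). For both genes the log2 fold change stayed negative in every alternative run, from -0.34 to -0.06 for Brdt and from -0.47 to -0.35 for Camk4. Of 13 alternatives Brdt passed in 3 and Camk4 in 4, all with every library kept. With median-ratio size factors the limma adjusted p was 0.0443 for Brdt and 0.0402 for Camk4.

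Crem, the transcriptional activator above the late genes, was at 82.2 and 80.2 in wildtype and at 63.9 and 70.3 in cKO libraries. The groups were close but separate, with cKO at 82.6% of wildtype. On the log2 scale the difference was -0.27 (95% interval -0.55 to 0.003, limma adjusted p 0.128). Crem makes activator and repressor forms, which a value per gene does not separate. Ybx2, the protein that stores the late messenger RNAs, was at 1984 and 1832 in wildtype and at 1625 and 1826 in cKO libraries. Its nearest libraries, 1832 and 1826, were almost equal. On the log2 scale the difference was -0.15 (95% interval -0.43 to 0.14, limma adjusted p 0.441) on the deposited scale and 0.26 after quantile normalization. A decrease of Ybx2 or of Crem was therefore not shown, and the intervals do not show an equal level either.

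**Figure D2:**
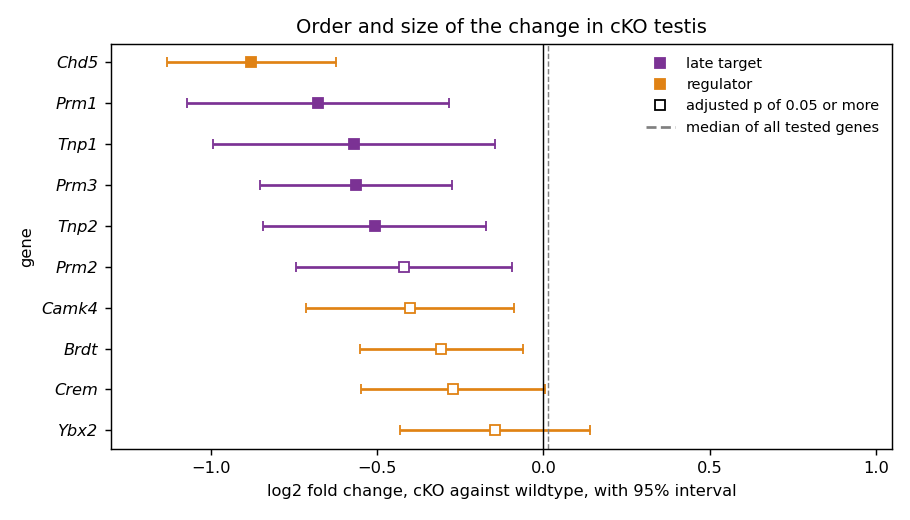
Log2 fold change of each gene in cKO against wildtype testis with its 95% interval, late targets in purple and regulators in orange, open squares where the limma adjusted p was 0.05 or more. Chd5 (-0.88) and Prm1 (-0.68) lead, and Crem (-0.27) and Ybx2 (-0.15) lie nearest to the dashed median of all tested genes (0.01); after quantile normalization Prm2 and Ybx2 were above 0.

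Ordered by the size of the decrease, the genes ran Chd5, Prm1, Tnp1, Prm3, Tnp2, Prm2, Camk4, Brdt, Crem and Ybx2. The order moved with the libraries and the scaling. Without wildtype replicate 1 Prm1 (-1.01) passed Chd5 (-0.97), without wildtype replicate 2 Prm3 (-0.75) came second and Tnp1 (-0.19) last, and after quantile normalization Camk4 (-0.47) came second. Within the log2 fold changes of all tested genes, ordered from the most negative, Chd5 stood at percentile 2.75, Prm1 at 7.70, Tnp1 at 12.3 and Ybx2 at 38.9. To see which neighbours in this order differed, the log2 ratio of each gene to the next was taken within each library. For 7 of the 9 neighbouring pairs these ratios overlapped between wildtype and cKO libraries. The exceptions were Tnp2 against Prm2 (a difference in log2 fold change of -0.09) and Crem against Ybx2 (-0.13). With 2 libraries per group such ratios can separate by chance, and no share over other gene pairs was taken. A difference between neighbours was therefore not shown. Chd5 over Crem was lower without overlap, from 3.10 and 3.60 in wildtype to 2.23 and 2.16 in cKO libraries, and Chd5 over Brdt went from 1.38 and 1.55 to 0.939 and 1.03. The place of Prm1 just below Chd5 was not fixed, since the log2 ratio of Chd5 to Prm1 was -2.84 and -3.33 in wildtype and -3.23 and -3.35 in cKO libraries.

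Regulators were then set against their late targets. The median log2 fold change was -0.56 over the 5 late targets and -0.31 over the 5 regulators, against 0.01 over all tested genes. Of the 25 pairs of a late target with a regulator, 20 had the larger decrease in the late target, and the 5 pairs with Chd5 went the other way. After quantile normalization 11 of the 25 had the larger decrease in the late target, and the medians were -0.28 and -0.20. In 10 pairs the late target was lower relative to the regulator in cKO testis, with no overlap of the within-library ratios: Prm2 and Tnp2 against each of Brdt, Crem and Ybx2, Prm1 against Crem and Ybx2, and Prm3 against Brdt and Ybx2. Prm2 and Tnp2 were higher relative to Chd5 in cKO testis without overlap. The pairs share genes and libraries, and with 2 libraries per group ratios can separate by chance. No share over other gene pairs was taken, so these counts show no order. Of single tested genes, 31.5% had both cKO libraries below both wildtype libraries.

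Taken library by library, the mean log2 value of the 5 late targets exceeded that of the 5 regulators by 3.20 and 3.44 in wildtype and by 3.18 and 3.17 in cKO libraries. The cKO values lay just below the lower wildtype value. The difference between groups was -0.15, against a spread between replicates of 0.119 (SD), and it was not tested because it is a score over chosen genes. It rested on wildtype replicate 2: the difference was -0.03 without that library and -0.27 without wildtype replicate 1. With Chd5 left out of the regulators, an alternative chosen after seeing the data, the values were 3.28 and 3.56 in wildtype and 3.16 and 3.15 in cKO libraries, a difference of -0.27. After quantile normalization the difference with all 5 regulators was 0.009. The lower level of late targets relative to regulators thus rested on 1 library, and its size on whether Chd5 was counted. It was absent after quantile normalization, which sets values by rank and leaves top-ranked genes little room to change. With median-ratio size factors the difference was -0.15, and with DESeq2 it was -0.16.

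Levels were compared between genes per kilobase of transcript. The wildtype mean, in TMM-scaled CPM per kilobase of the longest principal transcript in GENCODE, was 14037 for Tnp2, 9351 for Prm2, 5068 for Prm1, 3475 for Tnp1 and 554 for Prm3. Of the regulators Ybx2 stood highest at 1140 per kilobase, followed by Brdt at 39.0, Crem at 32.1, Chd5 at 28.6 and Camk4 at 17.2. By value per gene without length, Tnp2 ranked between the first and the third gene of every testis library, Prm2 between ranks 3 and 5, Prm1 between 8 and 24, Ybx2 between 12 and 29, and Tnp1 between 26 and 79. Prm3 ranked lower, between 754 and 1246. In cKO testis Tnp2 was at 9871 and Prm2 at 6992 per kilobase. Neighbours in this order were Brdt and Crem, whose per kilobase levels of 38.9 and 39.2 against 32.5 and 31.7 did not overlap in wildtype, and Crem and Chd5 (26.8 and 30.4), which did not overlap either.

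The genome places of the genes bear on what the values mean. In GENCODE on build GRCm38, Prm1 (ENSMUSG00000022501.6, chr16:10796326-10805839), Prm2 (ENSMUSG00000038015.6, chr16:10791380-10796134), Prm3 (ENSMUSG00000050058.6, chr16:10790505-10790914) and Tnp2 (ENSMUSG00000043050.8, chr16:10787936-10788660) form a row on the minus strand. The annotated Prm1 gene reaches beyond the RefSeq start used for its promoter, and Gm46563 and Gm10343 overlap it. Tnp1 (ENSMUSG00000026182.6, chr1:73015074-73015909, minus strand) lies inside the antisense gene 1700027A15Rik. Whether the authors counted by strand is not given in the sources used here, so the reads of these overlapping genes cannot be told apart. 1700027A15Rik shared with Tnp1 the high value in wildtype replicate 2, with 913 and 2209 in wildtype and 746 and 1175 in cKO. Unlike those of Tnp1, its groups overlapped, and it was not called (limma adjusted p 0.146). Chd5 (ENSMUSG00000005045.16, chr4:152338651-152390194, plus strand) holds the antisense gene Gm13645, which was at 11.0 and 12.2 in wildtype and at 3.90 and 4.19 in cKO libraries. Ybx2 (ENSMUSG00000018554.13, chr11:69935796-69941605, plus strand) overlaps no other annotated gene, and Brdt (ENSMUSG00000029279.15, chr5:107331159-107387058, plus strand) overlaps Gm8152. Crem and Camk4 overlap Gm6225 and 2310026I22Rik, at 15.6 to 23.2 and 2.92 to 4.71.

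Genes next to the cluster of Prm1, Prm2, Prm3 and Tnp2 were read to see whether the decrease was shared along the chromosome. Of the 6 nearest tested genes, 1 was called lower, a share near the 13.1% of all tested genes: Clec16a, at 68.3 and 87.3 in wildtype and 48.9 and 56.8 in cKO libraries (log2 fold change -0.54, limma adjusted p 0.0156). Socs1, an inhibitor of cytokine signalling and the nearest coding gene, was at 7.19 and 11.3 against 13.1 and 8.64, which overlap (log2 fold change 0.22, limma adjusted p 0.604). Dexi and Rmi2 had log2 fold changes of 0.27 and 0.36 (limma adjusted p 0.376 and 0.513). The pseudogene Gm10343 and the antisense gene Gm46563, which overlap Prm1, had -0.65 and -0.28 (limma adjusted p 0.140 and 0.433).

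**Figure D3:**
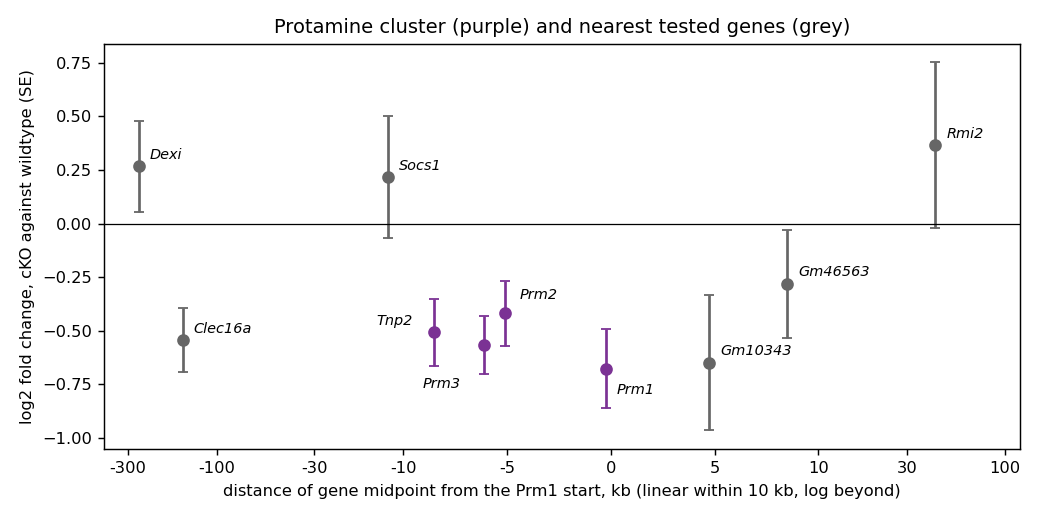
Log2 fold change in cKO against wildtype testis (points, with SE) of the 4 cluster genes in purple and the 6 nearest tested genes in grey, by distance from the Prm1 start in kilobases. On the deposited scale the cluster genes lie between -0.68 and -0.42 (Prm2 was at 0.03 after quantile normalization), and Socs1, Dexi and Rmi2 lie above 0.

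Other genes of the pathway came from a list of 32 with known parts in histone variants, histone removal, and spermatid transcription and RNA control. Of these, 15 were called lower and 1 higher (13.1% and 16.1% of all tested genes), with a median log2 fold change of -0.35 against 0.01 over all tested genes. Nutm1, which promotes the histone acetylation that precedes removal, went from 116 and 104 in wildtype to 57.3 and 55.1 in cKO libraries (log2 fold change -0.95, limma adjusted p 0.00022). Kif17, the motor that moves the CREM coactivator between nucleus and cytoplasm, went from 457 and 569 to 264 and 265 (-0.95, limma adjusted p 0.000203). Neither gene's groups overlapped. The linker histone gene H1fnt fell by 0.81, from 1330 and 1388 to 772 and 775 (limma adjusted p 0.000362), and Cdyl, a chromodomain protein, fell by 0.80, from 273 and 267 to 159 and 150 (limma adjusted p 0.000307). The gene that rose was H3f3b, which encodes the replacement histone H3.3, at 221 and 213 in wildtype and 264 and 310 in cKO libraries (0.40, limma adjusted p 0.023).

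Some members of that list were singled out after their values were seen. Fhl5, the coactivator of CREM in testis, fell by 0.63, from 59.4 and 76.4 to 41.2 and 45.0 (limma adjusted p 0.00721), while Crem itself was not called. Papolb, the cytoplasmic poly(A) polymerase of spermatids, fell by 0.73 (limma adjusted p 0.00224), and Psme4, the proteasome activator used in histone removal, fell by 0.66 (limma adjusted p 0.000929). Ybx3, the relative of Ybx2 among Y-box proteins, was at 1211 and 1271 in wildtype and 1042 and 1195 in cKO libraries (-0.15, limma adjusted p 0.394), close to the -0.15 of Ybx2 on the deposited scale (0.26 after quantile normalization). H3f3b lost its call without cKO replicate 2 and without the variance trend. The count of 15 was 9 without cKO replicate 1, 4 without the variance trend and 7 after quantile normalization, where the median of the list was -0.09 and that of all tested genes -0.05.

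Marker genes of testis cells moved with these results, and their part in them was not tested. For both spermatid lists below, the share of all tested genes called lower was 13.1%. Of 8 round spermatid markers 8 were called lower (median log2 fold change -0.60), with a summed level of 1912 and 2245 in wildtype and 1281 and 1292 in cKO libraries. The most abundant, Tssk2 and Tssk1, are spermatid kinases with log2 fold changes of -0.94 and -0.54. Of 8 elongating spermatid markers that encode no chromatin protein, 7 were called lower (median -0.65), with sums of 9458 and 9897 against 6151 and 6371. Akap4, of the sperm tail sheath, and Smcp, of the mitochondrial capsule, had -0.84 and -0.51. Both spermatid lists thus had medians at or beyond the -0.56 of the late targets, and the order of the 3 medians was not tested. Without cKO replicate 1 these counts were 5 and 4, after quantile normalization 5 and 3 (medians -0.49 and -0.35), and without the variance trend 1 and 1.

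Earlier germ cells and somatic cells went differently. Of 8 spermatogonial markers 5 were called higher and 0 lower (median 0.70), against 16.1% and 13.1% of all tested genes. Those called higher included Dmrt1 (0.95) and Etv5 (0.78), the latter a transcription factor of stem spermatogonia. Gfra1, a receptor of the same cells, was lower in both cKO libraries (16.1 and 13.8 against 9.05 and 12.7, log2 fold change -0.44) and not called. The 8 markers summed to 116 and 98.9 in wildtype and 179 and 182 in cKO libraries, and the count was 2 without cKO replicate 1 and 3 without cKO replicate 2. Of 8 spermatocyte markers 2 were called higher and 1 lower (median 0.25), against 16.1% and 13.1% of all tested genes. Their sums were 309 and 329 against 309 and 348. The median was 0.13 without cKO replicate 2. Sycp2, of the synaptonemal complex, was at 85.1 and 86.5 against 85.3 and 103, and Smc1b, the meiotic cohesin, fell by 0.52 (limma adjusted p 0.0159). Without wildtype replicate 2 the spermatocyte counts were 1 and 0, without cKO replicate 1 both were 0, and without cKO replicate 2 they were 0 and 1.

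The share of all tested genes called higher, 16.1%, applies to each list that follows. Sertoli markers were called higher in 8 of 8 cases (median 1.42), with sums of 494 and 440 in wildtype and 1462 and 1241 in cKO libraries. Clu, the most abundant, rose by 1.66 on the log2 scale and Cldn11, of the blood-testis barrier, by 1.42. Leydig markers were called higher in 7 of 7 (median 1.72), with sums of 393 and 290 against 1243 and 688. Among them Cyp17a1 and Hsd3b6, of androgen synthesis, and the latter's near copy Hsd3b1, whose reads may be split, had log2 fold changes of 1.25, 1.72 and 1.86. The Leydig median was 0.97 without cKO replicate 1, and 2 of the 7 were called without the variance trend. Among 5 peritubular myoid markers 2 were called higher (sums 43.7 and 35.2 against 66.2 and 76.8, with Acta2 at 1.11 and Myh11 at 0.73 called, and Tagln at 0.49 not called). Of 5 tested macrophage markers 3 were called higher (Lyz2 at 1.71, C1qa at 1.23 and Csf1r at 0.72), while Cx3cr1 had a log2 fold change of -0.89 and was not called. All 6 genes of that list summed to 47.6 and 41.1 against 97.4 and 72.6. Of 4 endothelial markers 1 was called higher and 1 lower, against 16.1% and 13.1% of all tested genes. Their sums were 20.5 and 19.3 against 19.5 and 16.4, with Vwf at -0.89 and Cdh5 at 1.00. Leaving out any 1 of the 4 libraries moved a count in at least 1 of these 3 small lists. No marker in any list was at 0 throughout.

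**Figure D4:**
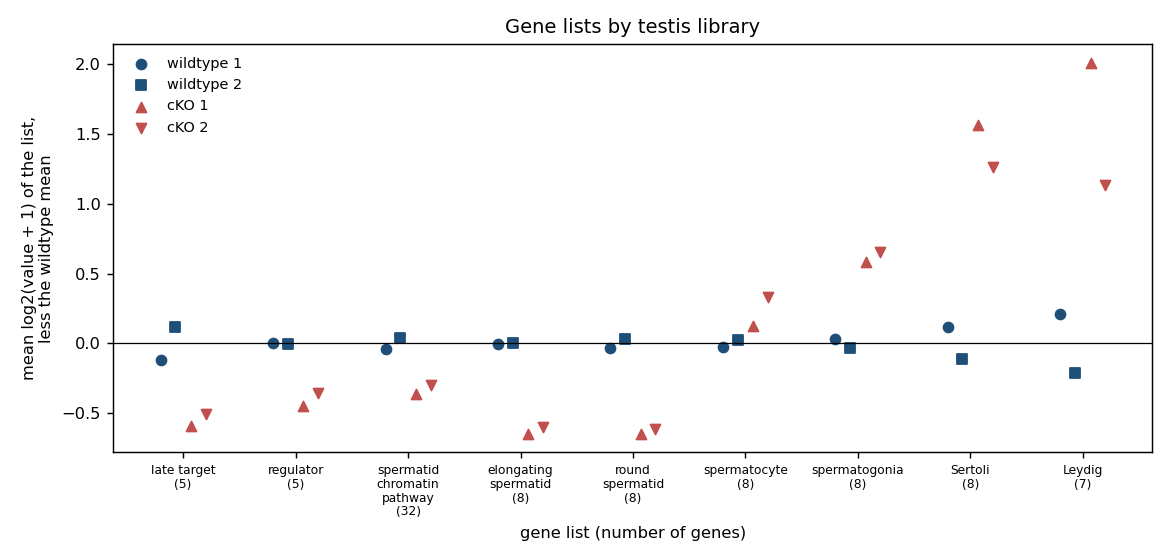
Mean log2(value + 1) of each gene list in each testis library, less the wildtype mean of that list, with wildtype in blue and cKO in red and the number of genes in brackets. On the deposited scale the late targets (-0.59 and -0.51) lie near the spermatid marker lists in cKO libraries, with Prm2 of that list turning to 0.03 after quantile normalization, while Sertoli and Leydig lists lie above 1.

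Genes with the most similar profile were sought by the distance between centred log2 values over the 4 testis libraries, among 14422 genes. Nearest to the mean of Prm1, Prm2, Tnp1 and Tnp2 (at 0.08 and 0.47 in wildtype and -0.34 and -0.20 in cKO libraries) were Gm10382 (distance 0.0132), Gm30954, Cep120, Wdtc1 and Gm28536. Wdtc1 showed the same high second wildtype library, with 468 and 608 in wildtype and 350 and 374 in cKO libraries. Nearest to Crem were Trp53i13 (distance 0.0181), Peli2, Ntan1, Znrd1as and Pdha2. Pdha2, the testis form of a pyruvate dehydrogenase subunit, was at 420 and 402 against 320 and 358. With 4 libraries such likeness describes only their order and spacing.

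In the 22 libraries of cultured epiblast-like and primordial germ cell-like cells in the series, the late targets had 5 reads in all, and no library held more than 4 of them. Regulators were not uniformly silent there. Chd5 ranged from 5.16 to 26.3, Crem from 5.0 to 15.7 and Ybx2 from 2.81 to 23.3, each above 3 reads in 22 of 22 libraries. Brdt (0 to 2.49) passed 3 reads in 17 libraries and Camk4 (0 to 2.18) in 4. The cell tables were scaled apart from the testis table, so levels are set beside each other only roughly.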

How the data were processed

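Trizol RNA from testis went into NuGEN Ovation mouse libraries, per the labels' protocols. Bowtie2 2.3.4.3, SAMtools 1.9, HTSeq 0.11.2, edgeR 3.26.8 and build mm10 are named, with no roles, per the submitters' processing notes. The deposited values are a signal scaled by the authors with TMM, per the names of the deposited tables. The same table carries the authors' log2 fold changes, p-values and FDR, per the file headers. In every library 100% of values were whole multiples of the value of 1 read, within 0.02. Recovered reads served the edgeR 4.0.16 and DESeq2 1.42.0 alternatives. In the edgeR test 2636 genes were lower.

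Main tests used limma 3.58.1 in R 4.3.3, with a variance trend, on log2(value + 1), for genes whose mean over the 4 testis libraries was 1 or more. The depth was 6058987 to 7272313 reads per library. The script was tested on data with known changes. Positions come from GENCODE and promoters from RefSeq GRCm38.p6.

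Named genes are Tex10 and the 10 genes, the 4 largest called decreases and increases of the pathway list, the 2 most abundant markers per list, the 3 nearest tested genes on each side of the cluster, and the 5 nearest profiles. Others named were chosen after their values were seen. The genes and lists were chosen with earlier results of these data known. Alternatives changed pseudocount, filter, scaling, test, variance trend, replicate block and the libraries used.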

Additional observations from a re-analysis of the deposited data

Results flagged for a closer look

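Chd5 was higher in each dTAG13 library in culture, and lower in each cKO testis library, than in its controls, and the difference between the experiments was not tested. In primordial germ cell-like cells treated with 500 nM dTAG13, which degrades tagged Tex10 protein, Chd5 was at 20.7 and 22.7 on day 2, against 8.43 and 7.74 with DMSO, a log2 difference of 1.32. On day 4 it was at 12.8 and 15.3 against 5.16 and 5.88, a log2 difference of 1.20. In the authors' deposited table the Chd5 FDR was 1.15e-05 on day 2 and 7.92e-05 on day 4. In testis Chd5 fell by 0.88.

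The Crem libraries lay on opposite sides of their controls in the same way, but Crem passed the test in neither experiment, so no change of direction was shown. Crem was at 13.2 and 14.3 with dTAG13 and at 8.30 and 12.1 with DMSO on day 2, a log2 difference of 0.42. On day 4 it was at 15.7 and 13.8 against 12.03 and 11.65, a log2 difference of 0.29. The authors' deposited table gave Crem an FDR of 0.677 and 0.854 on these days, and in testis its log2 fold change of -0.27 had a limma adjusted p of 0.128.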

How the results depend on the processing

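The count of 6016 called genes was 2135 without the variance trend (475 lower, 1660 higher) and 1978 with a required log2 fold change of 1, and DESeq2 called 2124 higher. Leaving out 1 library gave 3199 to 6119 calls, 1537 to 2755 lower and 1662 to 3364 higher. The 5 members called lower became 8 with a mean of at least 5, 2 after quantile normalization, 1 without the variance trend (Chd5) and 2 to 6 without 1 library; without cKO replicate 1 they were Prm3 and Chd5. Of all tested genes 2745 were called lower with a mean of at least 5, 2419 after quantile normalization and 2700 in the main test. After quantile normalization the late median was -0.28 and the regulator median -0.20. Late minus regulator turned there to 0.0088, as Prm2 did to 0.031 and Ybx2 to 0.26. Without Chd5 late minus regulator was -0.27, and without 1 library it ran from -0.27 to -0.03. The late median ran from -0.54 to -0.40 without 1 library. Of the fits of single members, 98 kept the side of the threshold and the direction, 14 gained a call, 16 lost it and 2 reversed. The cause of these changes was not tested.

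With the replicate number as a block, 8 members were called lower, Prm2, Brdt and Camk4 in addition. They were among 3308 genes called lower, and 7185 were called in either direction. The labels do not say that the numbers pair the libraries, and the correlation of 0.116 over 2 pairs does not settle it. With 2 libraries per group, the 95% interval of Crem ran from -0.55 to 0.003.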
